A study of Mus musculus with 22 samples.

Results

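Accessible chromatin was described at 6 loci of the Wnt/beta-catenin pathway, Lef1, Tcf7, Fzd4, Axin2, Ctnnb1 and Apcdd1, in sorted retinal endothelial cells of mouse pups. Members are ATAC-seq peaks whose midpoint lies in a fixed mm9 window of 160 to 300 kb around each gene. There were 110 such peaks among 58311 in the control list and 76 among 50178 in the gTKO list. ATAC-seq maps open chromatin by letting the Tn5 transposase cut and tag DNA that is not packed away. Control pups were S1pr3-/- S1pr1flox/flox S1pr2flox/flox on a C57BL/6 background, and gTKO pups carried Rosa26-CreERT2 in addition, a tamoxifen-dependent recombinase under a promoter active in most cell types. Loss of S1pr1 and S1pr2 was therefore not targeted to endothelial cells alone, and both genotypes lacked S1pr3. S1pr1, S1pr2 and S1pr3 encode receptors for the lipid sphingosine 1-phosphate. All pups received 100 µg of tamoxifen between postnatal days 1 and 3, and cells were taken at postnatal day 6. The labels also call the cells adult. Each genotype had 3 ATAC-seq libraries, each from the pooled retinas of several pups, and 1 peak list. The 16 RNA-seq libraries of the series were not analysed here, so nothing below concerns expression.

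In the canonical Wnt pathway, a ligand bound to a Frizzled receptor and its co-receptor stops the destruction of beta-catenin, which then enters the nucleus and acts with LEF and TCF proteins on target genes. In the retina, the ligand Norrin acts through Fzd4 on endothelial cells and is needed for vessel ingrowth and for the blood-retina barrier. Axin2 and Apcdd1 are targets of the pathway that dampen it.

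The peak lists give positions only, with no height, fold enrichment or p-value, and the read depth is unknown. Since each genotype has 1 list, the values carry no replicate error and the genotypes could not be tested against each other. A peak that shared no base with any peak of the other list is called control-only or gTKO-only. Intervals on shares are exact 95% Clopper-Pearson intervals. They cover counting error only and treat neighbouring peaks as independent. Peak width depends on read depth and on the calling threshold. The whole control list was the larger, and over all placed chromosomes the gTKO list covered 77.1% as much sequence as the control list. The part of that difference in the values below was not tested. Gene boundaries in mm9 were not used here. Peaks are placed by position in the window, and some may belong to neighbouring genes. Endothelial marker loci were not located for the same reason.

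Sequence just before a start site shows what kind of promoter these genes have. RefSeq promoter sequences (GRCm38.p6) matched 5 of the 6 genes, all but Apcdd1. The 250 bases before the start site are printed for the 3 genes whose listed start lies at the outer end of the gene, 5′ to 3′ on the plus strand, with CG pairs in capitals. They are Lef1 at chr3:131110047-131110296, Fzd4 at chr7:89404116-89404365 and Ctnnb1 at chr9:120933150-120933399, in GRCm38.p6 and not in the build of the peaks.
Lef1: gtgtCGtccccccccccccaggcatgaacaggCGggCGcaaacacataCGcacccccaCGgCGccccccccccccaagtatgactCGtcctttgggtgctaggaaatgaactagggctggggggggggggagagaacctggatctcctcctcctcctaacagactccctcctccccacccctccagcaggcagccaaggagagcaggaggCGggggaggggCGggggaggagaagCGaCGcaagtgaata
Fzd4: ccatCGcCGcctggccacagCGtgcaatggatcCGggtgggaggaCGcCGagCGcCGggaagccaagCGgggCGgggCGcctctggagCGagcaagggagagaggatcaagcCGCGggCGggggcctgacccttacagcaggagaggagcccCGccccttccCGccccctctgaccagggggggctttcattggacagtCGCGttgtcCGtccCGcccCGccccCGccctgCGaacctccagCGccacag
Ctnnb1: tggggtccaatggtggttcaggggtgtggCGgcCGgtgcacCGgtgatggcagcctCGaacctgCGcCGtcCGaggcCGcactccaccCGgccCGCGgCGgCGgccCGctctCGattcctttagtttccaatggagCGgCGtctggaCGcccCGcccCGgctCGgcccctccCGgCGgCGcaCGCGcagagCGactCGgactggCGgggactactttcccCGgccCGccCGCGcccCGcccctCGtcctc

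The printed promoter of Lef1 held 11 CG pairs, that of Fzd4 25 and that of Ctnnb1 35, against a median of 6 over 32851 listed promoters. Their GC contents were 66.4%, 72.8% and 74.8%, above the upper quartile of 61.2% of all promoters. The table lists 4 promoters for Lef1, and 2 of those further inside the gene held 6 and 5 CG pairs, at GC contents of 50.8% and 44.8% against a median of 52.4%. A TCF/LEF motif (CTTTGAT) was searched on both strands, and 3.21% of all promoters held it. The AP-1 motif TGANTCA was found in 6.75% of all promoters and the ETS motif CCGGAA, also on both strands, in 12.0%. Among the 10 listed promoters of the 5 matched genes, the only match was an ETS motif in 1 of the 2 Tcf7 promoters, starting at position -24 from the start site. The absence of a match says only that these letters are not in the window. Whether these stretches lie inside a peak was not determined, since the builds differ.

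Chromatin peaks at the 6 loci were fewer in the gTKO list, and one locus, Ctnnb1, made most of that difference. The control list held 110 peaks covering 59744 bp, and the gTKO list 76 peaks (69.1%) covering 36807 bp, or 61.6% of the control coverage. Over all placed chromosomes, the gTKO list held 86.5% as many peaks as the control list and covered 77.1% as much sequence. At each of the 6 windows the gTKO list covered less sequence, from 34.6% of the control coverage at Ctnnb1 to 80.9% at Tcf7. Peak numbers did not follow the same order. The gTKO list held more peaks than the control list at Tcf7 (16 against 13) and Fzd4 (10 against 8). At Tcf7, 1 control peak was matched by 2 gTKO peaks and 2 further gTKO peaks had no partner. At Fzd4, 2 control peaks were matched by 2 gTKO peaks each. With peaks of at least 300 bp alone the order was the other way round, at 8 control and 7 gTKO peaks for Tcf7 and 6 and 5 for Fzd4, and with windows extended by 50 kb Tcf7 had 23 in both lists. Without the Ctnnb1 window the lists held 64 and 61 peaks, and the gTKO coverage was 71.7% of the control coverage. In these 5 windows the gTKO list thus held 95.3% as many peaks as the control list, a higher share than over all placed chromosomes, while its coverage share was lower.

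**Figure D1:**
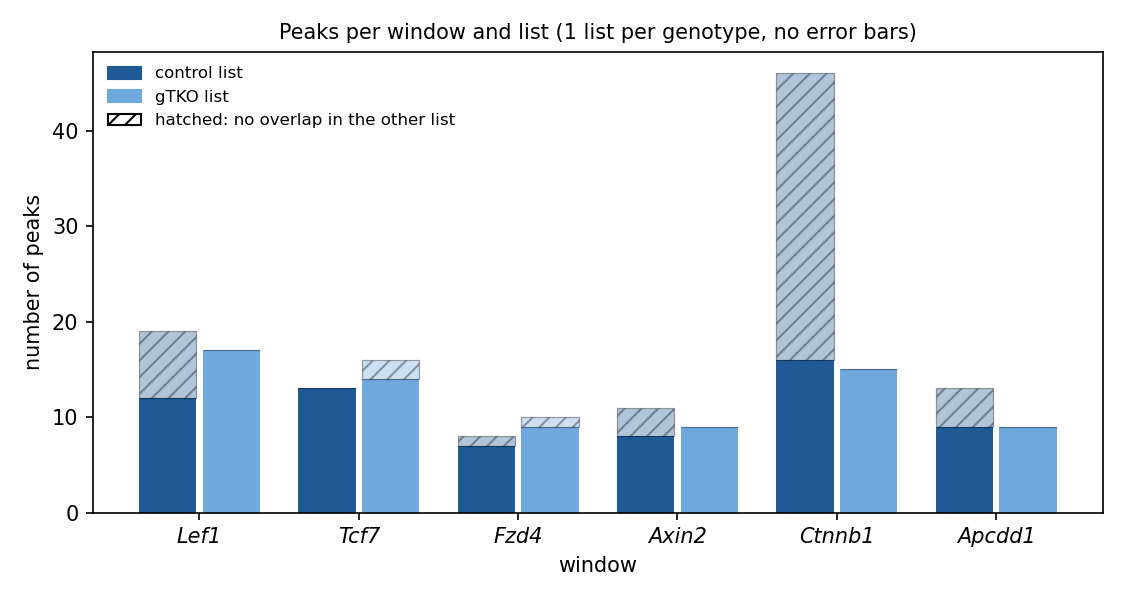
Number of ATAC-seq peaks (y axis) in each of the 6 windows (x axis), with dark bars for the control list and light bars for the gTKO list, and hatched parts for peaks without overlap in the other list. Ctnnb1 stands out with 46 control peaks, 30 of them control-only, against 15 gTKO peaks.

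Of the 110 control peaks, 45 (40.9%, interval 31.6 to 50.7%) were control-only, against 27.0% of all placed control peaks. This excess lay in the Ctnnb1 window. The other 5 windows together had 15 control-only peaks of 64 (23.4%, interval 13.8 to 35.7%), a share whose interval includes that of all placed peaks. Of the 76 gTKO peaks, 3 (3.95%, interval 0.822 to 11.1%) were gTKO-only, against 9.75% of all placed gTKO peaks. When a partner had to cover at least 50% of both peaks, the gTKO-only share was 32.9%, against 24.6% of all placed gTKO peaks under the same rule. The 3 gTKO-only peaks measured 150 to 152 bp, at or next to the smallest width in the list.

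**Figure D2:**
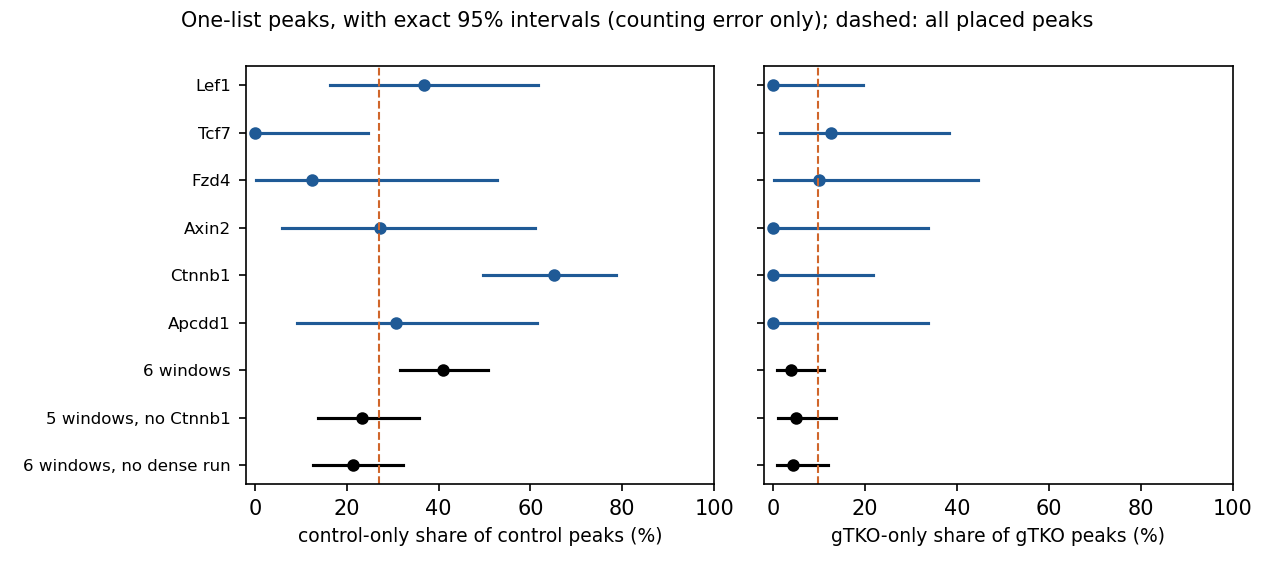
Share of control peaks that were control-only (left, percent) and of gTKO peaks that were gTKO-only (right, percent), for each window and for the windows together. Points are shares, lines are exact 95% intervals for counting error, and the dashed line marks all placed peaks. Only the Ctnnb1 interval (49.8 to 78.6%) and that of the 6 windows together lie wholly above the dashed line at 27.0%, and that of Tcf7 lies below it.

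Fzd4, the Norrin receptor of retinal endothelium, had few but wide peaks in the control list. The control list held 8 peaks covering 7620 bp and the gTKO list 10 peaks covering 5392 bp (70.8%). The median control peak was 1048 bp wide, the largest median of the 6 windows. The median gTKO peak was 277 bp wide, against 337 bp over all placed gTKO peaks. The widest control peak, chr7:96551514-96553845 (2332 bp), corresponded to 2 gTKO peaks of 1977 and 200 bp that were 77 bp apart. A control peak at chr7:96566656-96567977 (1322 bp) was likewise matched by gTKO peaks of 688 and 237 bp.

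At -11.7 kb from the centre of the widest Fzd4 peak, the control list held a peak of 1108 bp (chr7:96540414-96541521) with no gTKO counterpart. The nearest gTKO peak was 10036 bp away. Few peaks of this width lacked a partner anywhere: 41 of the 8738 placed control peaks of at least 1000 bp were control-only (0.469%), and this peak ranked 33rd by width among the 15471 control-only peaks. It was the widest control-only peak of the 6 loci. The gTKO-only peak of this window, chr7:96593739-96593888, measured 150 bp. Between them, the pair at chr7:96555380-96556367 was 988 bp wide in the control and 583 bp in the gTKO list, a ratio of 1.69.

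Ctnnb1 encodes beta-catenin, the signal carrier of the pathway, and its window stood apart from the others. It held 46 control peaks, 30 of them control-only (65.2%, interval 49.8 to 78.6%), against 27.0% of all placed control peaks. Its 15 gTKO peaks all had a partner, while 9.75% of all placed gTKO peaks had none. Control peaks numbered 25.6 per 100 kb here, against 5.0 to 8.12 per 100 kb in the other windows, and 8.33 in the gTKO list. The first part of the window resembled the other loci, with 11 control and 10 gTKO peaks, 1 of them control-only, and gTKO coverage at 77.4% of the control coverage. Its widest control peak, chr9:120841972-120843289 (1318 bp), overlapped a gTKO peak of 1231 bp that starts at the same base, and a second one of 157 bp. The gTKO peak of 157 bp also overlapped the next control peak, chr9:120843301-120843743 (443 bp).

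From chr9:120869595 to 120911005, a stretch of 41.4 kb, the control list held a run of 35 peaks with a median gap of 342 bp. Of these, 29 were control-only (82.9%, interval 66.4 to 93.4%). The gTKO list held 5 peaks there, covering 1251 bp against 10597 bp in the control list (11.8%). The control peaks were narrow, with a median of 244 bp and a maximum of 723 bp. That widest peak of the run, chr9:120891058-120891780, was matched by a gTKO peak of 181 bp, a ratio of 3.99 and the largest among the pairs of the 6 loci. No control peak followed the run for 55.5 kb.

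The run held 64.4% of the control-only peaks of all 6 windows. Without it, 16 of 75 control peaks were control-only (21.3%, interval 12.7 to 32.3%) and the gTKO coverage was 72.3% of the control coverage. The run was singled out after its values were seen. In GRCm38 the next protein-coding gene after Ctnnb1 is Ulk4, a kinase gene, and to which gene the run belongs was not determined. Chains of this size occurred elsewhere. When control peaks up to 10 kb apart were chained, 125 chains held at least 20 peaks, with a median control-only share of 47.6% (range 3.85 to 97.1%). Among these, 26 held more peaks than the Ctnnb1 run and 6 had a higher control-only share.

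**Figure D3:**
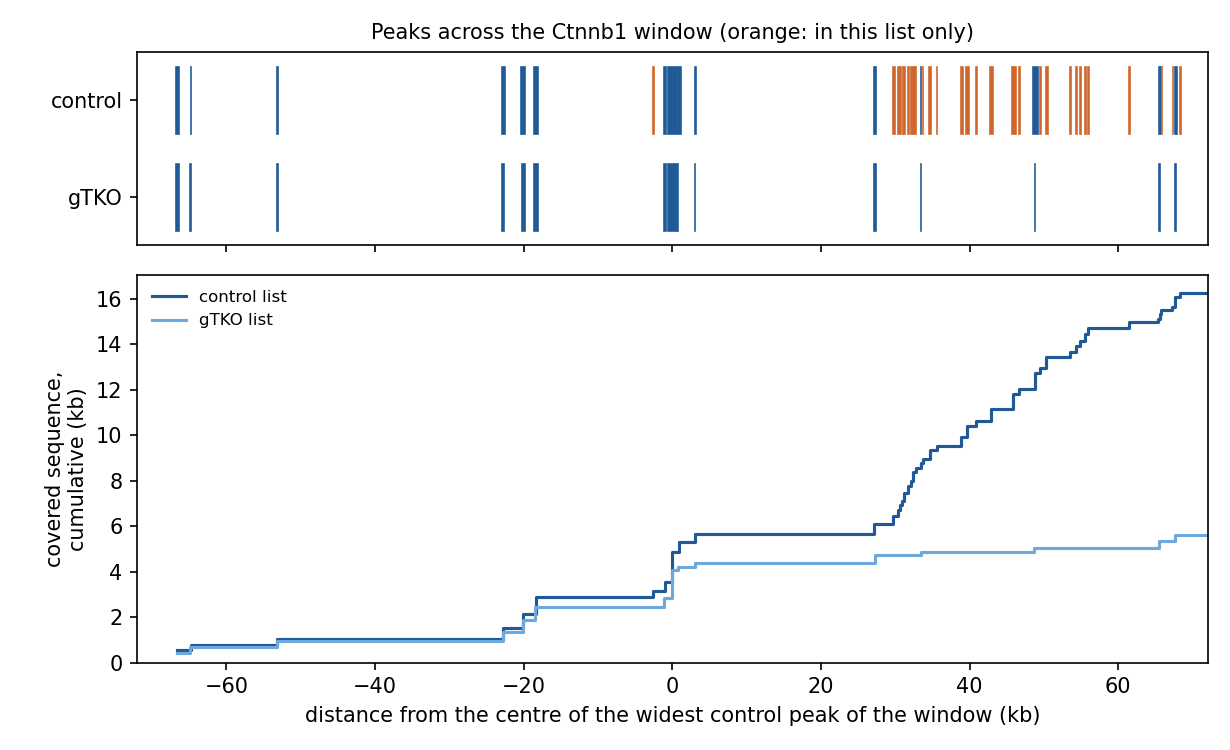
Peaks of both lists across the Ctnnb1 window (top, orange for peaks in that list only) and covered sequence summed along the window (bottom, kb), both against distance from the centre of the widest control peak (kb). The curves stay close up to the run of control peaks and end at 16248 bp for the control list and 5626 bp for the gTKO list.

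Lef1, which binds DNA as a partner of beta-catenin, had the widest single peak of the 6 loci in each list, while its median control peak, 365 bp, was narrower than those of Fzd4 and Apcdd1. The control list held 19 peaks covering 14047 bp and the gTKO list 17 peaks covering 10073 bp (71.7%). The widest control peak, chr3:130812528-130815613 (3086 bp), ranked 133rd of 57267 placed control peaks. It was matched by 3 gTKO peaks of 922, 201 and 1537 bp, which together made 86.2% of its width. A neighbour at chr3:130808400-130810979 (2580 bp) remained a single gTKO peak of 2272 bp, the widest gTKO peak of the 6 loci. The control peak at chr3:130787642-130789398 (1757 bp) was matched by gTKO peaks of 315, 501 and 316 bp, 64.4% of its width.

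Lef1 had 7 control-only peaks (36.8%, interval 16.3 to 61.6%), against 27.0% of all placed control peaks. It had 0 gTKO-only peaks of 17, a count whose exact interval reaches 19.5%, against 9.75% of all placed gTKO peaks. The control-only peaks were narrow, at 157 to 365 bp, and the widest was chr3:130947396-130947760. Among 9 pairs in which each peak matched a single peak of the other list, the control peak was wider in 6 (66.7%). The share was 79.5% of all placed pairs. With the widths of all gTKO partners summed, the control peak was wider in 9 of 12 cases. The gTKO peak was wider in 3 of the 9 pairs, among them the pair at chr3:130722194-130722902, with 709 bp in the control and 772 bp in the gTKO list. The pair at chr3:130842163-130843019 measured 857 and 858 bp. By contrast, the peak at chr3:130924055-130924690 was 636 bp wide in the control and 258 bp in the gTKO list, a ratio of 2.47.

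**Figure D4:**
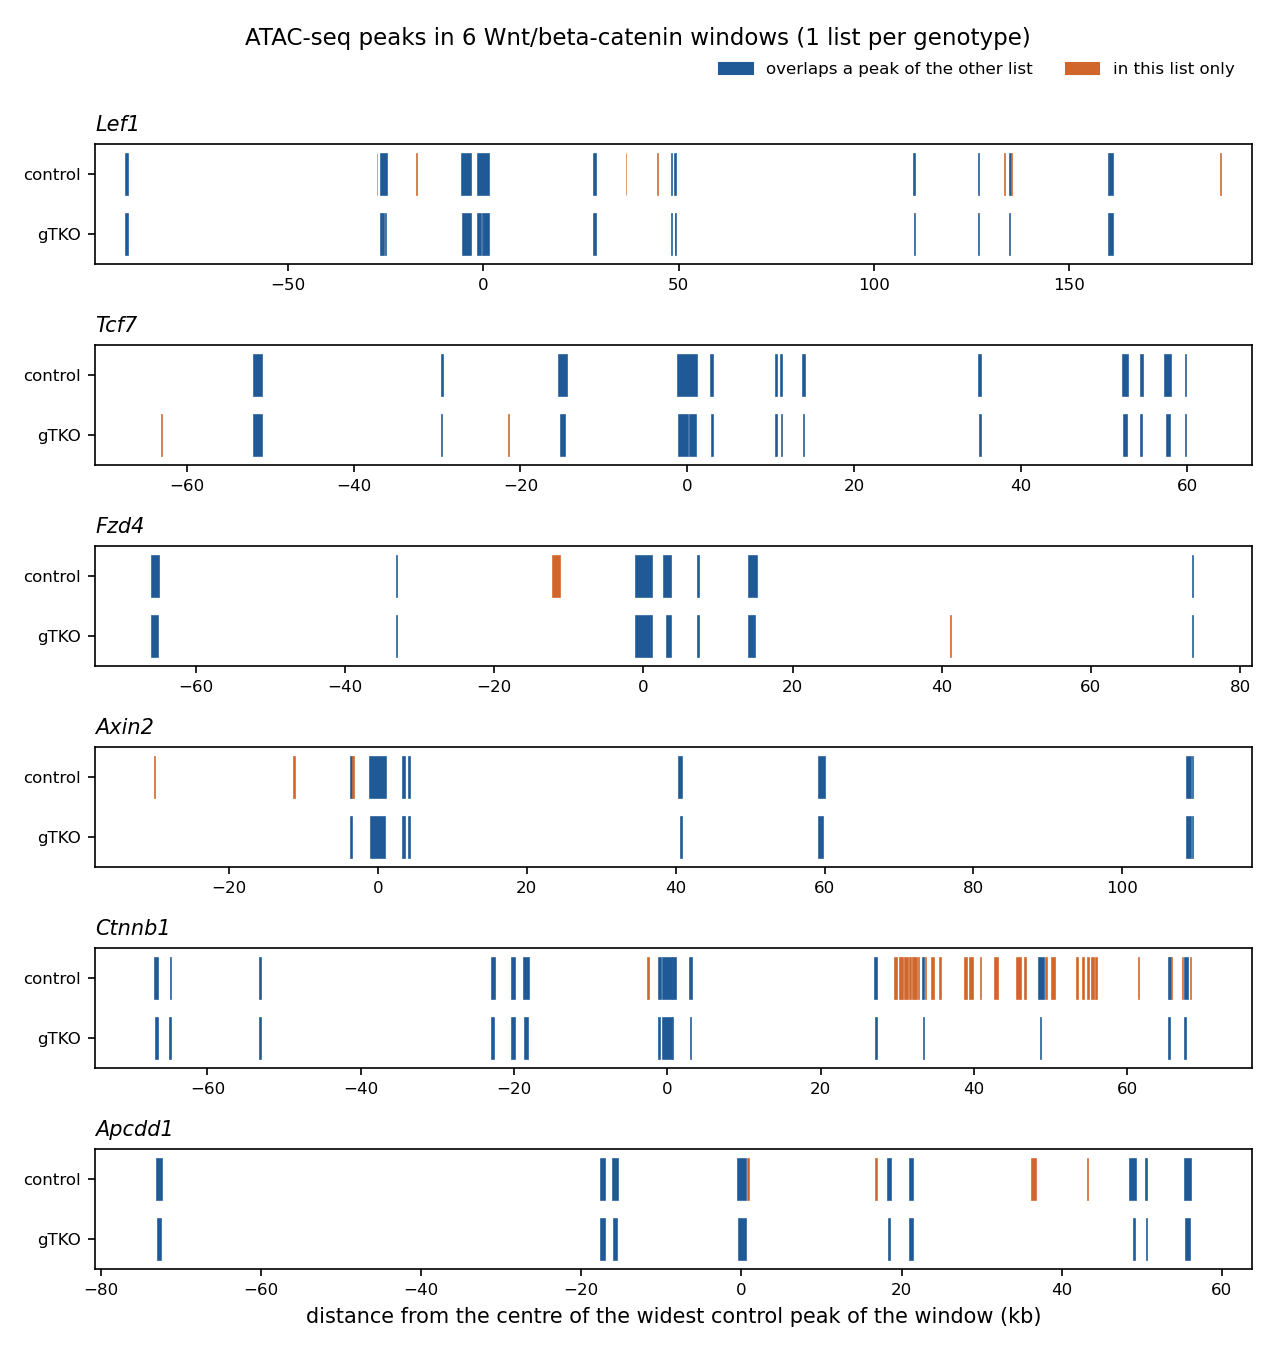
Peaks of the control list (upper row) and the gTKO list (lower row) in each of the 6 windows, against distance from the centre of the widest control peak (kb), in orange where the other list has no overlapping peak. Peaks are outlined so that the narrow ones are visible, and the smallest gaps between peaks are not. The control row holds 30 orange peaks at Ctnnb1 and none at Tcf7.

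Tcf7, which encodes the related factor TCF1, was the locus whose control peaks all had a counterpart in the window as defined. Of its 13 control peaks, 0 were control-only. A count of 0 in 13 still permits a share of 23.1% (taken as 3 counts), or 24.7% as the upper end of the exact interval. With the window extended by 50 kb on each side, 4 of 23 (17.4%) were control-only, against 27.0% of all placed control peaks. When both lists were limited to peaks of at least 300 bp, 2 of 8 had no partner, and with at least 200 bp 3 of 12, which counts peaks whose partner is narrower than the limit. The shares of all placed control peaks under these limits were not determined. The gTKO list held 16 peaks, 2 of them gTKO-only (12.5%, against 9.75% of all placed gTKO peaks). These were chr11:52033950-52034101 (152 bp) and chr11:52075573-52075722 (150 bp). In 10 of 12 matched pairs (83.3%) the control peak was the wider, against 79.5% of all placed pairs. Coverage was 8158 bp in the control and 6602 bp in the gTKO list (80.9%), against 77.1% over all placed chromosomes.

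The widest Tcf7 control peak, chr11:52095868-52098267 (2400 bp), was matched by gTKO peaks of 1223 and 813 bp. The peak at chr11:52081609-52082629 was 1021 bp wide in the control and 539 bp in the gTKO list, a ratio of 1.89. At chr11:52154295-52155146 the widths were 852 and 496 bp. The pair at chr11:52045034-52046023 was nearly the same in both lists, at 990 and 982 bp.

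Axin2, a scaffold of the complex that degrades beta-catenin and a widely used readout of the pathway, had 11 control peaks covering 6227 bp and 9 gTKO peaks covering 4677 bp (75.1%). A single peak made up much of this: chr11:108781318-108783619 measured 2302 bp in the control and 2011 bp in the gTKO list, 37.0% and 43.0% of the covered sequence. The control-only peaks numbered 3 (27.3%, interval 6.02 to 61.0%), against 27.0% of all placed control peaks, and measured 150, 233 and 194 bp. The last of them, chr11:108779042-108779235, lay 30 bp from a gTKO peak. No gTKO-only peak was found among 9, against 9.75% of all placed gTKO peaks. The peak at chr11:108822741-108823389 was 649 bp wide in the control and 275 bp in the gTKO list, a ratio of 2.36, while the pair at chr11:108891071-108891696 was 626 bp wide in both.

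Apcdd1, a membrane protein that inhibits Wnt signalling, had 13 control peaks covering 7444 bp and 9 gTKO peaks covering 4437 bp (59.6%), the lowest coverage ratio after Ctnnb1. All 9 gTKO peaks lay inside a control peak, against 62.6% of matched pairs outside the 6 windows. The widest, chr18:63081358-63082502, measured 1145 bp in the control and 960 bp in the gTKO list. Apcdd1 had 4 control-only peaks (30.8%, interval 9.09 to 61.4%), against 27.0% of all placed control peaks. Among them was chr18:63118166-63118738 (573 bp), which was 12099 bp from the nearest gTKO peak. Of all placed control peaks from 500 bp to under 1000 bp, 3.65% were control-only. The peak at chr18:63130348-63131168 was 821 bp wide in the control and 251 bp in the gTKO list, a ratio of 3.27, of which 490 bp were missing on the left side.

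Across the 6 loci, 54 peaks matched a single peak of the other list. The control peak was wider in 45 of these pairs (83.3%, interval 70.7 to 92.1%), against 79.5% of all placed pairs. The gTKO peak was wider in 8 pairs, and 1 pair had equal widths. Median widths were 478 bp (control) and 298 bp (gTKO), against 476 and 378 bp over all placed pairs. Within a pair the control peak was 1.28 times as wide by the median, against 1.15 times over all placed pairs. By window the median ratio ranged from 1.17 at Fzd4 to 1.40 at Tcf7. The gTKO peak lay inside the control peak in 42 pairs (77.8%), against 62.6% outside the 6 windows.

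In 13 pairs (24.1%, interval 13.5 to 37.6%) the control peak was at least 1.5 times as wide, against 17.3% of all placed pairs. The reverse occurred in 0 of 54 pairs, against 2.55% of all placed pairs. Pairs that differed this much and had a peak of at least 500 bp numbered 7, with at least 1 in each of the 6 windows, and all were wider in the control list. The 41 pairs outside the 13 differed by less than 1.5 times. A control peak was matched by several gTKO peaks in 8 of 110 cases (7.27%), 3 of them at Lef1 and 2 at Fzd4, against 5.28% of all placed control peaks. The reverse, a gTKO peak matched by several control peaks, occurred in 2 of 76 cases, both at Ctnnb1, against 529 of 49558 placed gTKO peaks. Of the 13 control peaks of at least 1000 bp, 6 were matched by several gTKO peaks (46.2%, interval 19.2 to 74.9%). The share was 21.5% of all placed control peaks of that width, which lies within the interval. The widest control peak of each window had a gTKO partner in all 6 windows, and in 4 of them (Lef1, Tcf7, Fzd4 and Ctnnb1) it had several. At Lef1, Tcf7 and Fzd4 it measured 2332 to 3086 bp, and the share of all placed control peaks of such width with several partners was not determined. At Ctnnb1 the second gTKO partner, 157 bp wide, reached across into the next control peak of 443 bp. This Ctnnb1 control peak is among the 6 counted above.

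**Figure D5:**
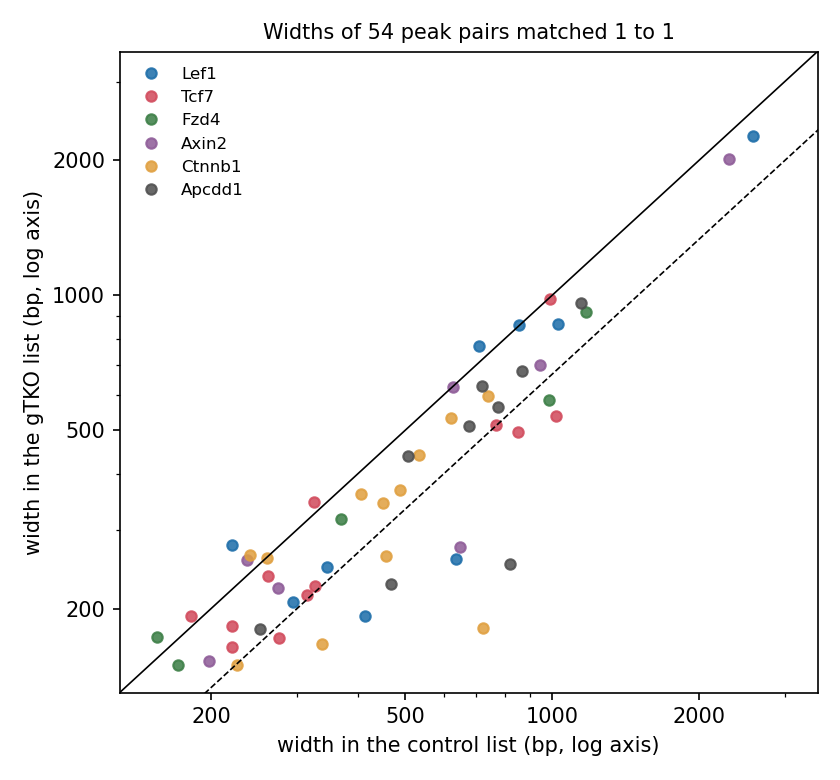
Width of each of the 54 matched peaks in the control list (x axis, bp, log) and in the gTKO list (y axis, bp, log), coloured by window. The solid line marks equal widths and the dashed line a control peak 1.5 times as wide. Most points lie between the lines or below the dashed one, and 8 lie above the solid line.

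Control-only peaks at these loci were mostly narrow, with a median width of 244 bp in the Ctnnb1 run and 215 bp outside it. Of the 61 control peaks of at least 300 bp, 14 (23.0%) had no gTKO partner, against 8.02% of all placed control peaks of that width. The Ctnnb1 run held 11 of these 14. The other 3 were the Fzd4 peak of 1108 bp, the Apcdd1 peak of 573 bp and the Lef1 peak of 365 bp. In the gTKO list, 0 of 38 peaks of at least 300 bp lacked a control partner, against 1.67% of all placed gTKO peaks of that width. Among the narrowest peaks, from 150 bp to under 200 bp, 8 of the 12 control peaks outside the Ctnnb1 window were control-only (66.7%), against 66.4% of all placed control peaks of that width.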

How the data were processed

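The authors deposited 1 peak list per genotype for 3 ATAC-seq libraries each, with start and end positions in bp. The submitters' processing notes name Bowtie2, Picard, MACS2 and bedtools among the tools of the series and mm9 as the build. Not given in the sources used here are the calling threshold, read filters, depths and any pooling of libraries. From these positions, peaks on chromosomes 1 to 19, X and Y were assigned to a window by midpoint. Overlap, covered sequence and widths were computed with Python 3.11.15, numpy 2.4.6, pandas 2.3.3, scipy 1.17.1 and matplotlib 3.10.9. The overlap procedure was tested on simulated data. The members and lists were chosen with earlier results of these data known. Besides the counts, peaks open to naming were the 3 widest control peaks per window and peaks split in the other list. So were control-only and gTKO-only peaks of at least 300 bp or the widest of a window. Pairs that differ by at least 1.5 times with a peak of at least 500 bp were also open to naming. Not every peak of these kinds is named, and the control-only peaks of at least 300 bp in the Ctnnb1 run are only counted. Other named peaks and pairs, and the printed motifs, were chosen after the values were seen. Further Wnt genes were not located, since mm9 gene positions were not used here.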

Additional observations from a re-analysis of the deposited data

How the results depend on the processing

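The control-only share of 40.9% ranged from 36.4 to 46.9% under 12 of the 15 alternatives. It was 53.6% when 50% of both peaks had to be covered, 23.4% without the Ctnnb1 locus and 21.3% without the dense run at Ctnnb1, a setting chosen after seeing the data. The share of all placed control peaks under the 50% rule was not determined. With both lists limited to at least 300 bp (45.9%) or 200 bp (43.7%), peaks whose partner was narrower than the limit counted as control-only. With gTKO partners of any width, 23.0% of control peaks of at least 300 bp lacked one. The gTKO-only share of 3.95% was 32.9% with 50% of both peaks covered and 1.67 to 6.58% otherwise. Peaks of at least 300 bp numbered 61 in the control and 38 in the gTKO list. The gTKO coverage, 61.6% of that in the control list, was 63.7% with windows extended by 50 kb, 59.1% in the central 50% of each window, 58.9% with peaks of at least 300 bp, 63.1% with the widest control peaks only and 72.3% without the dense run. The share of pairs with a wider control peak stayed between 80.0 and 86.7%. No paired analysis was possible because the 3 libraries of a genotype share 1 list of positions, which also means that single libraries could not be left out. Windows of 8 to 46 control peaks limit the precision of single-locus shares.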
